A study of Homo sapiens with 52 samples.

Results

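The genes described here are 48 DNA replication and E2F target genes, taken by symbol from the 27043 genes that each of the 52 expression tables lists. All 48 passed the filter on low values, a TPM of at least 1 in at least 2 samples (TPM are transcript abundances scaled for gene length to sum to 1000000 in a sample), as did 16359 genes in all. The members cover licensing of origins (11 genes: ORC1, ORC6, CDC6, CDT1, GMNN and MCM2 to MCM7), firing of the helicase (6: MCM10, CDC45, GINS1, GINS2, GINS3 and GINS4), the sliding clamp and its loader (5: PCNA, RFC2, RFC3, RFC4 and RFC5) and the replicative polymerases (6: POLA1, POLA2, PRIM1, POLD1, POLE and POLE2). Lagging strand processing (3: FEN1, LIG1 and RPA2), nucleotide supply (5: RRM1, RRM2, TYMS, TK1 and DUT), the E2F factors (3: E2F1, E2F2 and E2F8), chromatin behind the fork (4: UHRF1, CHAF1A, CHAF1B and SLBP) and fork protection and repair (5: TIPIN, CLSPN, BRCA1, BRCA2 and EXO1) made up the rest.

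The study measured poly-A RNA in fusion-positive rhabdomyosarcoma cells, a muscle-lineage childhood cancer line that carries PAX3-FOXO1, after exposure to small molecules against chromatin regulators. The screen held 20 compounds at a high and a low dose for 6 h, 1 sample per dose, and DMSO at 0.2% (for the high doses) and 0.1% (for the low doses), with 2 libraries of each. LAQ824, Cpd50 and GSKJ4 were given at 5 and 0.5 µM and the rest at 10 and 1 µM. Beside the screen stood N1302, an HDAC inhibitor, at 1 µM for 6 h with its own 0.1% DMSO, and entinostat, an inhibitor of HDAC1, HDAC2 and HDAC3, at 1 µM for 1, 6 and 24 h, each hour with its own 0.1% DMSO and 1 sample per condition. The acetylation axis held 7 screen compounds: LAQ824 (HDACs), WT161 (HDAC6), MC1568 (HDAC4 and HDAC5), Merck60 (HDAC1 and HDAC2), OJI-1 (HDAC8), Bromosporin (bromodomains) and SGC-CBP30 (the CREBBP and EP300 bromodomain). The methylation axis held 11: Cpd50 (Jumonji demethylases), EZ-005 (EZH2), GSKJ4 (JMJD3 and UTX), GSKLSD1, LSD-519 and LSD-690 (LSD1), PFI-2 (SETD7), SGC0946 (DOT1L), UNC0638 (KMT1C), UNC-1215 (L3MBTL3) and UNC1999 (EZH2 and EZH1). PFI-3 (SMARCA4) and Trametinib (MEK1 and MEK2) were placed in neither. For PFI-3 this was a choice, since the paper lists BRG (SMARCA4) among remodelers that can read acetylation. No comparison of the axes included it. The screen titles name the line RH41 while the cell line label says RH4, so the line is called here only by the fusion it carries.

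E2F factors bind DNA with a DP partner and switch on the genes of the G1 to S transition, while RB and its relatives hold them off until cyclin-dependent kinases phosphorylate RB. Their targets first build the pre-replicative complex, in which ORC, CDC6 and CDT1 load the MCM helicase on origins, and then supply the CDC45 and GINS helicase partners, the polymerases, the clamp and the deoxynucleotides. HDACs are among the co-repressors that RB brings to these promoters, and bromodomain proteins read acetylated histones at active genes.

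The promoters of the members carried E2F letters more often than promoters at large, so the windows of genes that the results turn on are shown. The set was chosen to hold E2F targets, so this excess can come from the choice itself. The promoters at large were not matched to the members for base content. RefSeq promoter sequences (GRCh38.p14, 250 bases before to 50 after the start) were found for 43 of the 48 members. Any of TTTGGCGC, TTTCCCGC, TTTCGCGC or TTTGCCGC, on either strand, stood in 26 of 60 member promoters (43.3%) and in 1164 of all 35116 (3.32%). By gene, that was 25 of 43 members (58.1%) beside 3.99% of all genes. The CCAAT letters of NF-Y boxes, also searched on both strands, stood in 31 of 60 member promoters (51.7%) and in 34.6% of all. The 2 kinds of match can share letters, as in the MCM7 window below, where CCAAT begins on the last base of the E2F match. These are matches of letters and not measured binding. Each line below gives 30 bases along the strand of the gene with the E2F letters in capitals.
CDC6 (chr17:40287875-40287904, plus strand): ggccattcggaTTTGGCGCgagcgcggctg
MCM7 (chr7:100101388-100101417, minus strand): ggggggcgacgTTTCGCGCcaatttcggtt
GINS2 (chr16:85688967-85688996, minus strand): ctctcgccgtgGCGGGAAAacggcggccgc
GINS3 (chr16:58392455-58392484, plus strand): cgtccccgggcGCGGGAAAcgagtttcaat
POLE2 (chr14:49688201-49688230, minus strand): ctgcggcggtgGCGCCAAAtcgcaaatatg
TYMS (chr18:657603-657632, plus strand): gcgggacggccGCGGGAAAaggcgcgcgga
E2F1 (chr20:33686387-33686416, minus strand): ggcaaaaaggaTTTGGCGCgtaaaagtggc
E2F2 (chr1:23531257-23531286, minus strand): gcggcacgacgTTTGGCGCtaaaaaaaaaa
PCNA (chr20:5126663-5126692, minus strand): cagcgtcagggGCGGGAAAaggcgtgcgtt

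In these 9 windows the letters began between 59 bases before the start (PCNA) and 8 bases after it (CDC6, where they lie in the transcribed part). The searched windows of TK1, SLBP, RRM2, CDC45, FEN1, CHAF1B, ORC6 and BRCA2 held none of the 4 spellings. Genes with these letters appeared below both among the members that rose and among those that fell: CDC6 and GINS2 rose with LAQ824 while GINS3, POLE2, MCM7, E2F2 and TYMS fell.

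The samples held 5737939 to 41415071 reads over genes (median 15055060), recovered from the TPM values, and the lowest member value rested on 30 reads (CHAF1B). Levels are given in TPM and differences on the log2(TPM + 1) scale, which understates changes of low genes. The muscle markers MYOD1, MYOG and DES had median levels of 436, 532 and 366 TPM, with lowest values of 48.5, 32.2 and 188 TPM. Of the markers of other cell types, PTPRC, CD3E, KRT5 and KRT19 had a median of 0. EPCAM, PECAM1, CDH5 and LUM had medians of at most 0.194 TPM, though LUM reached 16.15 TPM. The fibroblast markers PDGFRA, DCN and COL1A2 had medians of 6.77, 2.2 and 2.2 TPM, and the leukocyte marker CD14 had 1.10 TPM. The 2 DMSO libraries of a concentration were sequenced on different flow cells and differed from each other no more than counting noise once flow cell and concentration were removed (1.018 times the noise), so they were counted as 1 sample per concentration. The differences removed were larger, with a variance of 4.078 times the noise for flow cell and 3.549 times for concentration. The 14 compounds of one flow cell, among them WT161, Bromosporin and UNC0638, had no DMSO library on it, so they were also fitted against the other compounds of that flow cell. In that fit 10 members were higher and 19 lower with Bromosporin (14.5% and 27.7% of all genes), 5 and 7 with WT161 (20.8% and 15.5%), and 1 and 11 with UNC0638 (3.31% and 15.0%). GSKLSD1 and UNC-1215 shared another flow cell without DMSO and had no such fit. In bulk RNA, fewer cells in S phase and less RNA per cell cannot be told apart.

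In control cells all members were expressed, and their mean level varied little between controls, but for the DMSO of N1302. Screen DMSO levels ran from 15.8 TPM (CHAF1B, a chromatin assembly subunit) to 509 TPM (PCNA), with a median of 89.5 TPM. Single members differed more between the screen DMSO and the 6 h DMSO of the time course. MCM4 was at 234 and 135 TPM, FEN1 at 280 and 196 TPM, and POLA1 at 34.7 and 51.7 TPM. The mean member level was 6.53 to 6.55 on the log2 scale in the screen DMSO and 6.55, 6.51 and 6.57 in the DMSO of 1, 6 and 24 h. Over those 3 hours the median member spanned 0.126 in DMSO and the widest, E2F8, an atypical E2F repressor, spanned 0.639. The DMSO sample of N1302 lay apart at 6.17, with 37 of 48 members below the 6 h DMSO of the time course and 9 of them by at least 1.5-fold. No difference was called between the 2 DMSO concentrations of the screen: 0 of the 48 members and 0 of the 16359 genes were called by limma, while 7 members and 1548 genes had an unadjusted p under 0.05. The absence of calls does not show that the concentrations were alike, since their difference exceeded counting noise, as above.

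**Figure D1:**
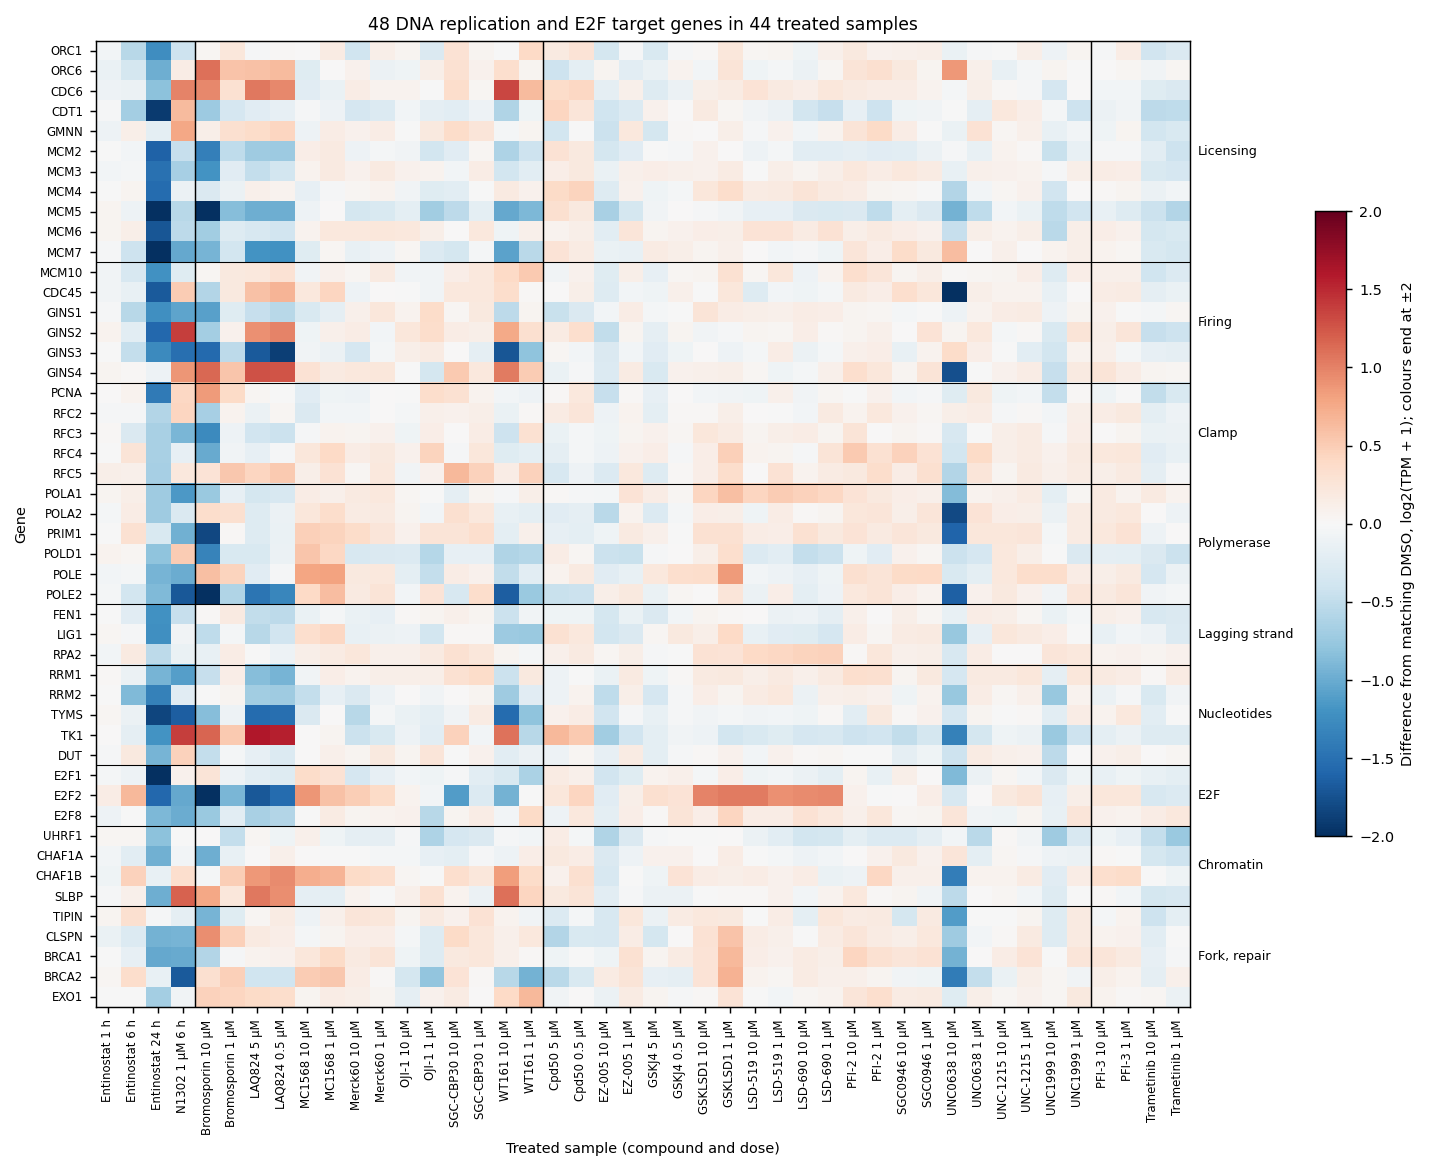
Heat map of the difference from matching DMSO, log2(TPM + 1), for the 48 genes (vertical axis, by role) in 44 treated samples (horizontal axis, compound and dose; colour, difference). The 24 h entinostat sample is below its DMSO for all 48 genes, while the LAQ824, WT161 and Bromosporin samples hold both higher and lower genes.

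LAQ824, WT161 and Bromosporin, all of the acetylation axis, moved many genes, members among them, and each moved the members both ways. LAQ824 raised 11 and lowered 15 of the 48, WT161 raised 5 and lowered 11, and Bromosporin raised 10 and lowered 18 (limma on log2(TPM + 1), adjusted p below 0.05 over all genes tested, both doses of a compound taken as its replicates). The background was wide: 28.9% of all genes were raised and 25.2% lowered by LAQ824, 18.4% and 15.0% by WT161, and 13.1% and 24.2% by Bromosporin. Of the members, 22.9% rose and 31.2% fell with LAQ824, 10.4% rose and 22.9% fell with WT161, and 20.8% rose and 37.5% fell with Bromosporin. Against all genes tested, the shares lay above the background for lower calls with all 3 and for higher calls with Bromosporin. They lay below it for higher calls with LAQ824 and WT161. All 48 members had a mean of at least 5 TPM, and a fit over the 11106 genes at that level differed. There 54.2% of the members were called either way with LAQ824, beside 61.8% of those genes. The shares were 37.5% beside 42.5% with WT161 and 62.5% beside 47.4% with Bromosporin. With LAQ824 33.7% of those genes fell, more than the 31.2% of members in the main fit, so that excess depended on the background. The 3 comparisons share their DMSO samples, so their values are set side by side without an overlap test. With a spread estimated only from a compound's own samples and DMSO, 0 members and 0 of the 16359 genes were called for WT161 and for Bromosporin, while 4042 and 2842 genes had an unadjusted p under 0.05. Over the 20 compounds there were 80 calls of members, 32 higher and 48 lower, and 47 without the 0.2% DMSO libraries.

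Among the licensing genes LAQ824 raised 3 and lowered 5 of 11, WT161 raised 1 and lowered 3, and Bromosporin raised 2 and lowered 6. CDC6, which recruits the MCM helicase to origins, was at 145 and 150 TPM in the 0.2% DMSO libraries and at 153 and 147 TPM in the 0.1% libraries. It stood at 307 and 294 TPM with 5 and 0.5 µM LAQ824, at 373 and 233 TPM with 10 and 1 µM WT161, and at 287 and 186 TPM with 10 and 1 µM Bromosporin. All 6 treated samples lay above all DMSO libraries, and CDC6 rose by log2 1.01 ± 0.17 (SE; limma adjusted p = 2.95e-05), 0.98 ± 0.17 (0.00014) and 0.63 ± 0.17 (0.00579). MCM5, a subunit of the helicase ring, went the other way.
MCM5 was at 182 and 186 TPM in 0.2% DMSO and 190 and 195 TPM in 0.1% DMSO, against 93.7 and 97.2 TPM with LAQ824, 90.1 and 103 TPM with WT161 and 32.6 and 106 TPM with Bromosporin, high dose first. All treated values were below the controls, and the Bromosporin doses lay far apart. The log2 fold changes were -0.97 ± 0.27 (limma adjusted p = 0.00364), -0.96 ± 0.27 (0.00762) and -1.66 ± 0.27 (9.44e-05). MCM7 of the same ring fell as well, from 455 to 500 TPM in DMSO to 202 and 211 TPM with LAQ824 (log2 -1.20 ± 0.17, limma adjusted p = 3.89e-06), 221 and 335 TPM with WT161 (-0.80 ± 0.17, 0.00098) and 242 and 378 TPM with Bromosporin (-0.65).

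The 4 GINS genes, whose products form 1 complex with CDC45 and the MCM ring, did not move together. GINS3 was at 23.6 and 25.6 TPM in 0.2% DMSO and 28.2 and 26.0 TPM in 0.1% DMSO, and at 6.99 and 6.61 TPM with LAQ824, 6.81 and 15.1 TPM with WT161 and 7.73 and 18.5 TPM with Bromosporin. The log2 fold changes were -1.78 ± 0.23 with LAQ824 (limma adjusted p = 1.23e-06), -1.26 ± 0.23 with WT161 (0.000262) and -1.04 with Bromosporin, all called. GINS2 rose with LAQ824, from 70.0 to 73.3 TPM in DMSO to 138 and 141 TPM (log2 0.96 ± 0.18, limma adjusted p = 9.63e-05), and with WT161, to 125 and 87.8 TPM (0.54 ± 0.18, 0.0221). With 10 µM Bromosporin it was at 45.4 TPM and with 1 µM at 74.1 TPM, not called. GINS4 was at 44.2 to 45.8 TPM in DMSO and rose to 109 and 110 TPM with LAQ824 (log2 1.27 ± 0.32, limma adjusted p = 0.00187) and to 99.5 and 67.3 TPM with Bromosporin (0.85 ± 0.32, 0.0399). CDC45, their partner, had log2 values of 0.64 ± 0.33 (limma adjusted p = 0.111), 0.18 and -0.20 with the 3 compounds, none called.

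For the clamp and the polymerases the compounds differed in which genes were called. PCNA, the clamp, was at 489 to 522 TPM in DMSO and at 465 to 529 TPM in the LAQ824 and WT161 samples, inside or close to the controls. It was at 933 and 654 TPM with 10 and 1 µM Bromosporin, above every control, and rose by log2 0.62 ± 0.15 (limma adjusted p = 0.00308). POLE2, the second subunit of polymerase epsilon, fell with all 3. It was at 32.8 to 33.2 TPM in the 4 DMSO libraries, at 11.3 and 12.7 TPM with LAQ824 (log2 -1.39 ± 0.36, limma adjusted p = 0.00229), at 9.90 and 19.3 TPM with WT161 (-1.19 ± 0.36, 0.0127) and at 5.03 and 21.3 TPM with Bromosporin (-1.55 ± 0.36, 0.00183). POLD1, the catalytic subunit of polymerase delta, fell with WT161 (-0.58) and Bromosporin (-0.82 ± 0.18, limma adjusted p = 0.00121). FEN1, the flap nuclease of the lagging strand, was at 272 to 288 TPM in DMSO and fell with LAQ824 to 194 and 198 TPM (log2 -0.51 ± 0.10, limma adjusted p = 0.000183). It was at 204 and 273 TPM with WT161 and 280 and 322 TPM with Bromosporin, neither called.

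The nucleotide genes held members that moved in opposite directions with LAQ824 and with Bromosporin. TYMS, thymidylate synthase, which makes dTMP anew, was at 312 and 340 TPM in 0.2% DMSO and 310 and 334 TPM in 0.1% DMSO. It was at 111 and 113 TPM with LAQ824, 112 and 184 TPM with WT161 and 180 and 301 TPM with Bromosporin. All 6 were below the controls, and the log2 fold changes were -1.52 ± 0.16 (limma adjusted p = 7.07e-08), -1.17 ± 0.16 (9.66e-06) and -0.47. TK1, thymidine kinase, which makes dTMP by salvage, was at 170 to 180 TPM in DMSO and rose to 539 and 509 TPM with LAQ824 (log2 1.58 ± 0.32, limma adjusted p = 0.000209) and to 395 and 249 TPM with Bromosporin (0.84 ± 0.32, 0.0411). With WT161 its doses disagreed, at 376 TPM with 10 µM and 118 TPM with 1 µM, and it was not called over both (0.27 ± 0.32, limma adjusted p = 0.565). RRM2, the small subunit of ribonucleotide reductase, was at 317 to 328 TPM in DMSO and fell with LAQ824 to 200 and 196 TPM (-0.71 ± 0.19, limma adjusted p = 0.00274). It was at 199 and 276 TPM with WT161 and 324 and 335 TPM with Bromosporin, neither called.

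Of the E2F factors, the activator E2F2 was at 27.4 to 30.2 TPM in DMSO and fell to 8.14 and 9.16 TPM with LAQ824 (log2 -1.62 ± 0.28, limma adjusted p = 3.19e-05) and to 4.95 and 14.8 TPM with Bromosporin (-1.62 ± 0.28, 0.000159). With WT161 it was at 14.5 and 28.6 TPM, the low dose among the controls, and was not called. The activator E2F1, at 175 to 181 TPM in DMSO, was at 154 and 148 TPM with LAQ824 and 214 and 164 TPM with Bromosporin, not called, and fell to 144.2 and 114 TPM with WT161 (-0.47 ± 0.16, limma adjusted p = 0.0245). Behind the fork, SLBP, the histone mRNA binding protein, was at 228 to 249 TPM in DMSO and rose to 491 and 466 TPM with LAQ824 (0.99 ± 0.17, limma adjusted p = 3.94e-05) and to 505 and 328 TPM with WT161 (0.76 ± 0.17, 0.00159). It also rose with Bromosporin (0.50). UHRF1, which reads hemimethylated DNA, was called with none of the 3 (-0.02, -0.04 and -0.24). CLSPN, the checkpoint adaptor claspin, was at 46.9 to 49.0 TPM in DMSO and rose with Bromosporin to 92.5 and 67.4 TPM (0.71 ± 0.18, limma adjusted p = 0.0032). ORC6, the smallest ORC subunit, rose with Bromosporin from 61.1 to 70.0 TPM in DMSO to 149 and 94.1 TPM (0.84 ± 0.18, limma adjusted p = 0.00123).

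**Figure D2:**
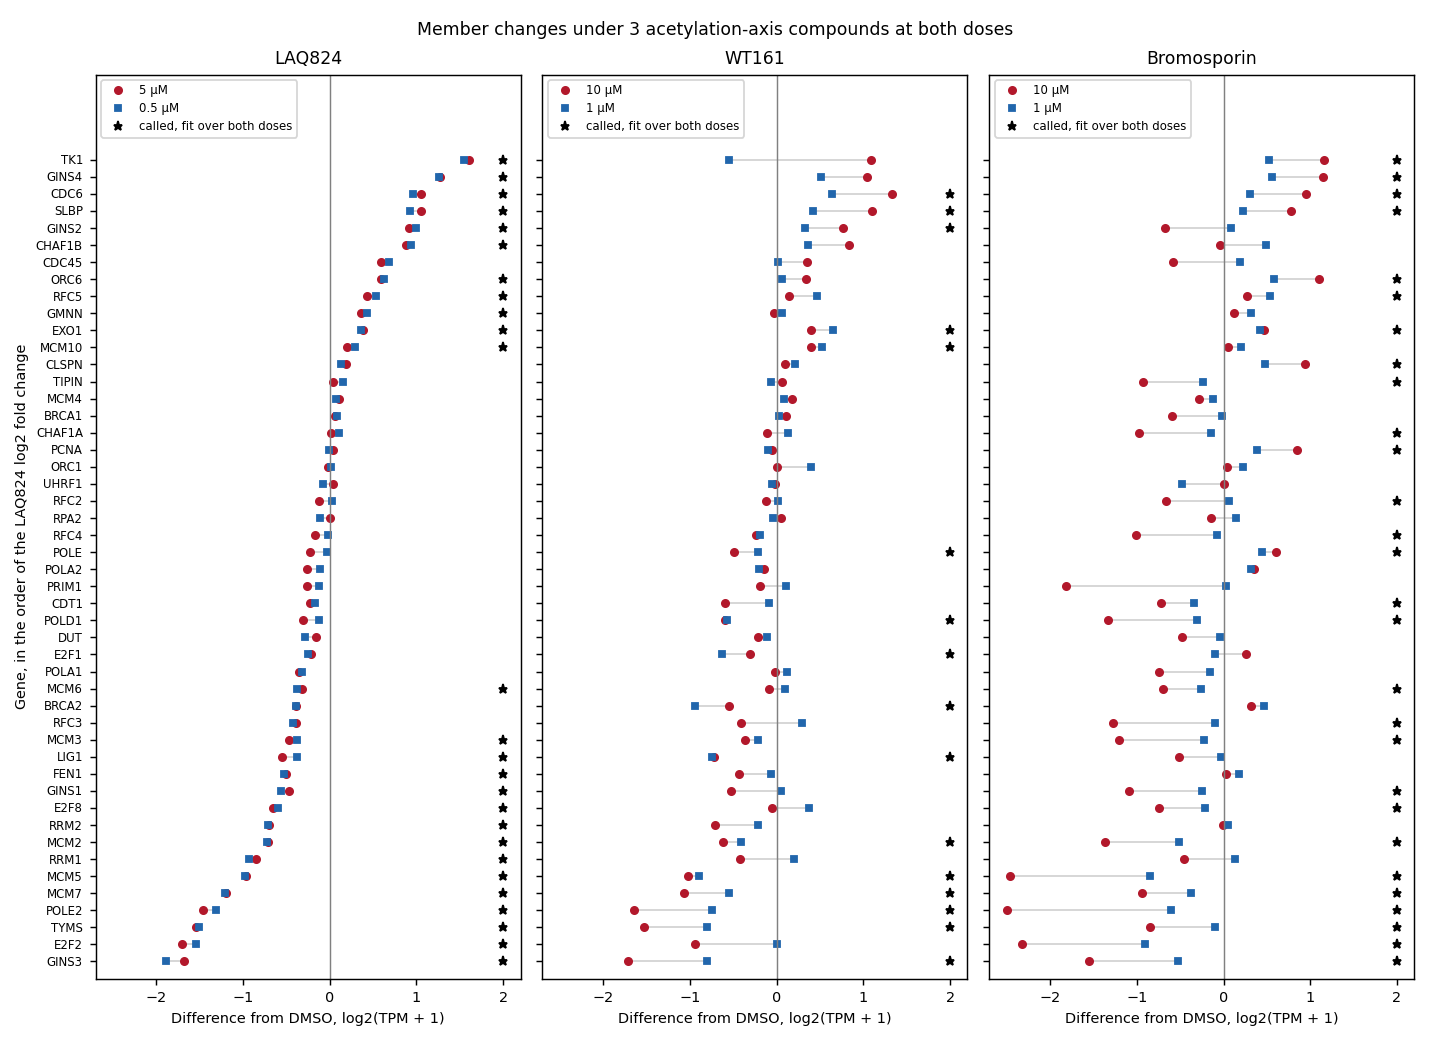
Difference from matching DMSO, log2(TPM + 1), horizontal axis, of the 48 genes (vertical axis, in the order of their LAQ824 fold change) under LAQ824, WT161 and Bromosporin, with the high and the low dose as separate points and stars at genes called over both doses. The LAQ824 doses nearly coincide, and the Bromosporin doses are apart, as for MCM5 (-2.47 at 10 µM and -0.85 at 1 µM).

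The counts for each dose alone were close for LAQ824 and apart for the other two. At 5 µM LAQ824 alone 9 members rose and 12 fell (background 22.0% and 19.6%), and at 0.5 µM alone 7 rose and 12 fell (24.2% and 21.4%). With WT161, 10 µM alone gave 8 higher and 14 lower (20.6% and 16.6%) and 1 µM alone 3 and 5 (8.12% and 6.24%). With Bromosporin, 10 µM alone gave 9 higher and 25 lower (15.5% and 30.4%) and 1 µM alone 0 and 3 (2.94% and 6.8%). In a single-dose fit the lone sample is assumed to vary as the other samples do. The difference between doses was not tested. Without the 0.2% DMSO libraries 8 members (16.7%) were called over both doses with WT161, beside 18.9% of all genes, and 17 (35.4%) with Bromosporin, beside 21.1%. The mean over the 48 members was -0.15 and -0.12 with 5 and 0.5 µM LAQ824, -0.16 and -0.06 with 10 and 1 µM WT161, and -0.41 and 0.01 with 10 and 1 µM Bromosporin. With another scaling between samples (median of ratios), 10 µM Bromosporin gave -0.17.

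UNC0638, which inhibits the H3K9 methyltransferase KMT1C, lowered many members at its high dose. Over both doses limma called 0 higher and 3 lower (background 2.87% and 11.1%), and 10 µM alone gave 2 higher and 21 lower (15.4% and 26.7%), against 0 and 0 at 1 µM (0.22% and 0.22%). The 3 called over both doses, named after their values were seen, were BRCA2 (log2 -0.94 ± 0.20, limma adjusted p = 0.00759), a recombination mediator, E2F1 (-0.50 ± 0.16, 0.0377) and LIG1 (-0.46 ± 0.15, 0.0384), the ligase of the lagging strand. BRCA2 was at 23.5 to 25.7 TPM in DMSO and at 8.69 and 17.2 TPM with 10 and 1 µM. The genes named from here on for UNC0638 were also chosen after their values were seen.
A fit of 10 µM alone holds 1 UNC0638 sample, so its calls measure no spread between UNC0638 samples. CDC45, the helicase partner, was at 67.5 to 71.5 TPM in the 4 DMSO libraries, 74.7 TPM at 1 µM and 15.8 TPM at 10 µM. That was a difference of log2 -2.08 at the high dose. GINS4 was at 45.1 TPM at 1 µM, among the controls, and 12.5 TPM at 10 µM (-1.75 from DMSO). POLE2 was at 35.0 TPM at 1 µM and 9.92 TPM at 10 µM, and TK1 at 136 and 68.7 TPM. At 10 µM 4 of 6 polymerase genes and 4 of 5 fork genes were lower by at least 1.5-fold, beside 4734 of the 16359 genes tested. Among them was POLA2, the accessory subunit of polymerase alpha (10 µM alone, log2 -1.77). Against this, MCM7 was at 710 TPM at 10 µM and 494 TPM at 1 µM (10 µM alone, log2 0.63), and ORC6 at 126 and 67.7 TPM (0.86). The member mean was -0.50 at 10 µM and 0.01 at 1 µM, beside a median over all genes of -0.17 and -0.08. The result rests on the 10 µM sample: with it alone 23 members were called, and with the 1 µM sample alone 0. Leaving out the DMSO of 0.2% or 0.1% gave 0 members over both doses and 38 or 88 of all genes, against 2286 with both. Over all genes, UNC0638 gave 469 higher and 1817 lower, and 737 and 1126 with median-of-ratios scaling.

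**Figure D3:**
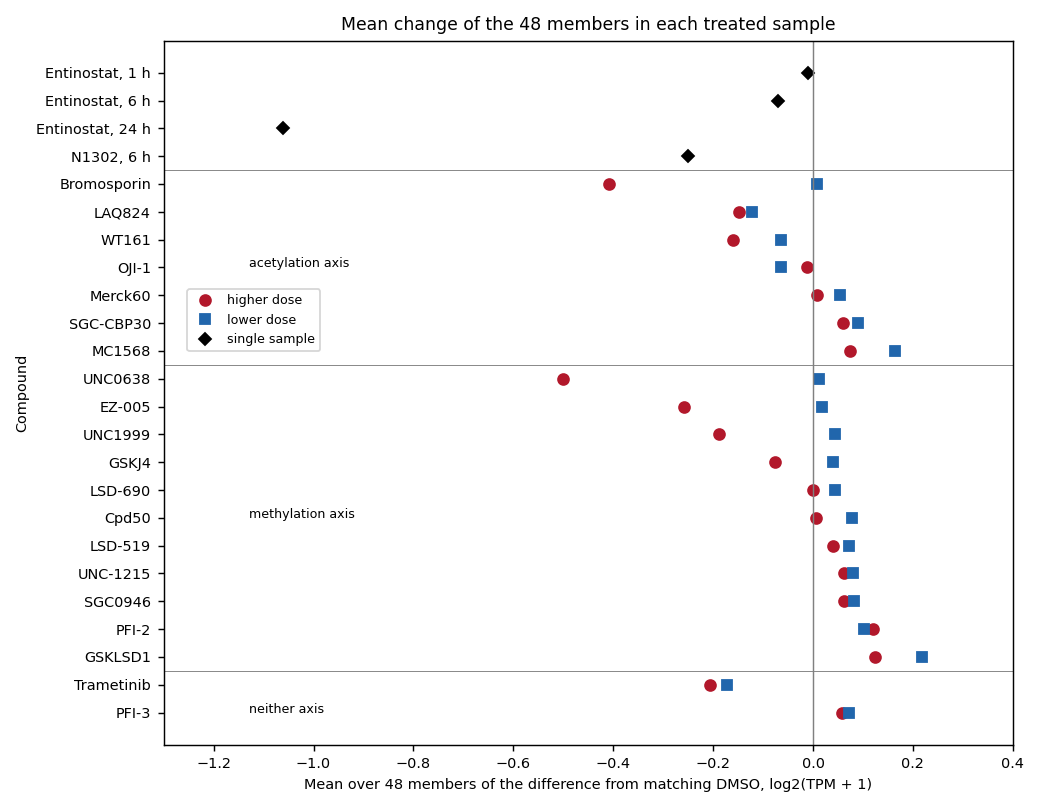
Mean over the 48 genes of the difference from matching DMSO, log2(TPM + 1) (horizontal axis), in each treated sample by compound (vertical axis), with points marked by dose or time. Entinostat at 24 h stands at -1.06, and the screen compounds lie between -0.50 (UNC0638, 10 µM) and 0.22 (GSKLSD1, low dose). Median-of-ratios scaling turns the sign for N1302 (to 0.07) and for entinostat at 6 h (to 0.05).

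The other 16 screen compounds left nearly all members uncalled. The 7 calls, named after their values were seen, were POLE and E2F2, both higher, with GSKLSD1 (background 3.1% higher and 0.807% lower), POLE higher with MC1568 (20.6% and 3.34%), MCM4 higher with Cpd50 (3.67% and 2.74%), RFC5 higher with SGC-CBP30 (0.996% and 3.17%), RPA2 higher with LSD-690 (1.16% and 0.403%) and UHRF1 lower with Trametinib (1.45% and 1.57%). Without the DMSO of either concentration 1 member call was left over these 6 compounds, with MC1568, and the other 6 were lost. MC1568, an inhibitor of HDAC4 and HDAC5, raised 20.6% of all genes and 1 of the 48 members. Limma called 0 members for EZ-005, GSKJ4, LSD-519, Merck60, OJI-1, PFI-2, PFI-3, SGC0946, UNC-1215 and UNC1999, where 0 (Merck60 and PFI-3) to 6 (PFI-2) members had an unadjusted p under 0.05. The background was near 0 in these comparisons too. Of all genes, 0.0183% were higher and 0.0734% lower with EZ-005, 0.0% and 0.0122% with GSKJ4, 0.617% and 0.055% with LSD-519, 0.0245% and 0.116% with Merck60, and 0.0978% and 0.11% with OJI-1. The shares were 0.196% and 0.428% with PFI-2, 0.0183% and 0.0245% with PFI-3, 0.147% and 0.0611% with SGC0946, 0.0245% and 0.0183% with UNC-1215, and 0.0245% and 0.055% with UNC1999.

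E2F2 was the member that the 3 LSD1 inhibitors had in common as a high value, seen after the fact. It was at 58.3 and 59.6 TPM with 10 and 1 µM GSKLSD1, 60.5 and 54.7 TPM with LSD-519 and 56.6 and 56.4 TPM with LSD-690, against 27.4 to 30.2 TPM in the 4 DMSO libraries. All 6 samples lay above all controls, and LSD-519 and LSD-690 were sequenced on another flow cell than GSKLSD1. The log2 fold changes were 1.01 ± 0.28 (limma adjusted p = 0.0374), 0.98 ± 0.28 (0.132) and 0.95 ± 0.28 (0.0913), so only the first passed. E2F1 and E2F8 were not called with any of the 3.

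Trametinib, a MEK inhibitor, lay below DMSO for 40 of 48 members at 10 µM and 38 at 1 µM, with means of -0.21 and -0.17. UHRF1 alone passed (log2 -0.61 ± 0.16, limma adjusted p = 0.043), and 11 members, all lower, had an unadjusted p under 0.05. EZ-005 lay below DMSO for 44 of 48 members at 10 µM (mean -0.26) and UNC1999 for 39 (mean -0.19), while their 1 µM samples had means of 0.02 and 0.04. None of these members was called.

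Compounds of the acetylation axis were also compared with those of the methylation axis, and no member passed the test. With each compound averaged over its doses, 7 acetylation against 11 methylation compounds, limma called 0 of 48 members and 0 of 16359 genes, while 6 members were higher and 7 lower at an unadjusted p under 0.05, as were 5018 genes in both directions. The lower members with the smallest p were MCM7 (-0.56 ± 0.13, limma adjusted p = 0.0568), TYMS (-0.49 ± 0.16, 0.0724) and GINS3 (-0.58 ± 0.21, 0.084). The higher ones were CHAF1B (0.44 ± 0.14, limma adjusted p = 0.0622), GINS4 (0.56 ± 0.17, 0.0634) and TK1 (0.64 ± 0.22, 0.076). At the high dose alone MCM7 and TYMS were lower and GINS4 and TK1 higher in acetylation compounds (background 5.4% higher and 4.47% lower). With 1 of MC1568, Merck60 and OJI-1 dropped, limma called 7 members (14.6%) each time, beside 15.3%, 16.3% and 18.7% of all genes, so the members' share was at or under the background. The member mean spanned -0.41 to 0.07 over the acetylation compounds at the high dose and -0.50 to 0.12 over the methylation compounds, so the ranges overlapped.

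N1302, with 1 sample and 1 control, gave no test, and its members lay on both sides of the control. By at least 1.5-fold, 7 members were higher and 16 lower than in its DMSO (background 19.9% and 31.5% of all genes). With median-of-ratios scaling, which moved the median over all genes from -0.11 to 0.03, 13 were higher and 15 lower (28.1% and 23.4%). The lowest were POLE2 (24.5 TPM in DMSO and 6.88 TPM with N1302, log2 -1.69), BRCA2 (26.6 and 7.64 TPM, -1.68) and TYMS (234 and 73.8 TPM, -1.65). The highest were TK1 (165 and 431 TPM, 1.38), GINS2 (74.8 and 196 TPM, 1.38) and SLBP (161 and 366 TPM, 1.18). So the thymidine kinase was higher and the thymidylate synthase lower in this sample too, and GINS2 was higher while GINS3 went from 19.6 to 6.25 TPM. CDC6 went from 141 to 283 TPM, CDC45 from 40.2 to 57.4 TPM, PCNA from 589 to 783 TPM, FEN1 from 177 to 128 TPM and RRM2 from 427 to 366 TPM. E2F1 (152 and 162 TPM) and UHRF1 (49.8 and 49.6 TPM) stood close to their control, and CLSPN went from 33.0 to 16.8 TPM. The mean over the 48 was -0.25, and with median-of-ratios scaling it turned to 0.07, so no direction is given for the group. N1302's DMSO held lower member levels than the other controls, as above, and against the mean of both 6 h DMSO samples the mean was -0.42.

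Entinostat at 24 h was the one condition in which the members moved one way. All 48 lay below the DMSO of the same hour, 40 of them by at least 1.5-fold and 22 by at least 2-fold, while 16.0% of all genes were lower and 28.2% higher by at least 1.5-fold. The mean was -1.06 beside a median over all genes of 0.10, and -0.97 with median-of-ratios scaling. The mean level in DMSO had an SD of 0.0321 over the 3 hours. With 1 sample per time there is no test.

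At 1 h the values lay close to DMSO: 0 members were higher and 0 lower by 1.5-fold (background 1.42% and 1.28%), and all lay between -0.13 and 0.14. At 6 h E2F2 was higher (34.3 TPM in DMSO and 54.2 TPM with entinostat, log2 0.64) and RRM2 and CDT1 lower (290 and 157 TPM, -0.88, and 32.1 and 19.6 TPM, -0.68), beside 14.5% of all genes higher and 5.53% lower. CDT1 is the licensing factor that geminin (GMNN) restrains. The 6 h mean was -0.07, and it turned to 0.05 with median-of-ratios scaling.

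At 24 h the licensing genes were the lowest of the larger roles, with a mean of -1.46 and 10 of 11 lower by at least 1.5-fold. MCM5 was at 146, 143 and 142 TPM in DMSO of 1, 6 and 24 h, and at 151, 133 and 26.3 TPM with entinostat (log2 -2.39 at 24 h). MCM7 was at 533, 469 and 485 TPM in DMSO and 522, 352 and 108 TPM with entinostat (-2.16). CDC6 was at 141, 130 and 130 TPM in DMSO and 131, 120 and 73.8 TPM with entinostat. Thus the 1 h and, for MCM5 and CDC6, the 6 h values lay near their controls and the 24 h values did not.
All 3 E2F genes were lower (mean -1.51). E2F1 was at 203, 178 and 204 TPM in DMSO and 197, 167 and 48.2 TPM with entinostat (-2.06 at 24 h). E2F2, higher at 6 h, was at 45.2 TPM in DMSO and 14.5 TPM at 24 h. All 5 nucleotide genes were lower by at least 1.5-fold (mean -1.25): here TYMS (328 TPM in DMSO and 91.2 TPM at 24 h), TK1 (165 and 71.5 TPM) and RRM2 (310 and 121 TPM) stood on the same side.

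The firing genes had a mean of -1.18, with 5 of 6 lower. CDC45 went from 79.5 TPM in DMSO to 24.0 TPM at 24 h and GINS2 from 92.8 to 30.5 TPM. GINS4 was the exception at 52.3 and 48.8 TPM (-0.10), so the GINS subunits again stood apart from each other. In the clamp group, PCNA went from 555 to 208 TPM, and among the polymerases POLE2 went from 29.2 to 15.3 TPM. FEN1 of the lagging strand went from 193 to 82.5 TPM. The chromatin genes UHRF1 (98.7 and 55.3 TPM) and SLBP (197 and 99.2 TPM) were lower, while CHAF1B stood at 18.5 and 16.6 TPM (-0.15). The fork genes were the least lowered, with a mean of -0.56 and 3 of 5 lower by 1.5-fold. CLSPN went from 53.1 to 27.2 TPM, and BRCA2 (32.9 and 29.5 TPM, -0.15) and TIPIN (53.4 and 52.8 TPM, -0.02), a fork protection subunit, were nearest to DMSO.

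**Figure D4:**
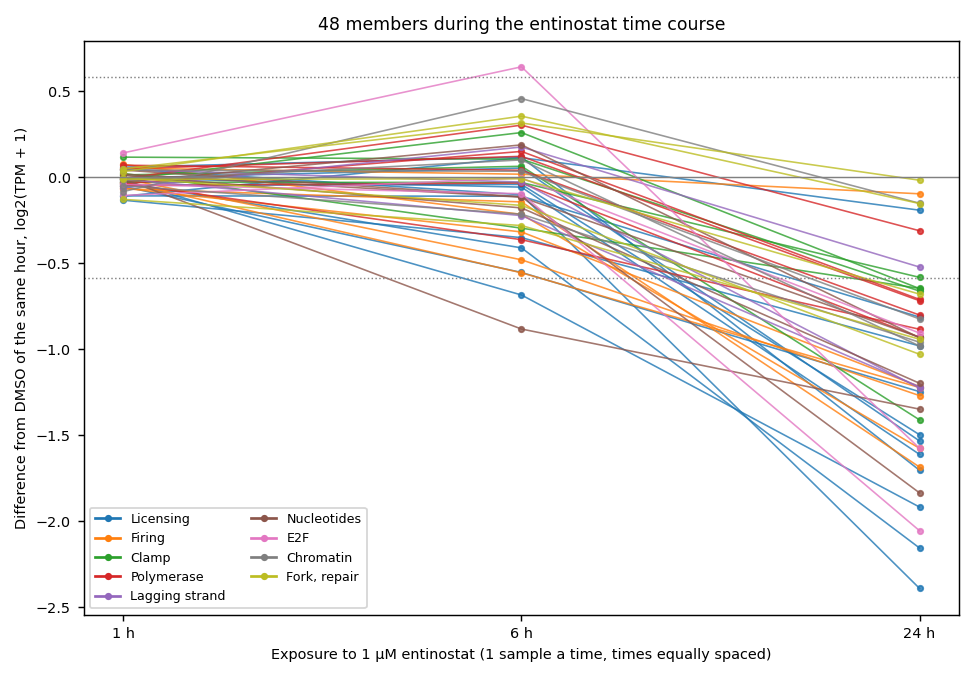
Difference from DMSO of the same hour, log2(TPM + 1) (vertical axis), of each of the 48 genes at 1, 6 and 24 h of 1 µM entinostat (horizontal axis, times equally spaced, 1 sample a time), with lines joining the samples of a gene. All lines lie near 0 at 1 h and at or below 0 at 24 h, from -0.02 (TIPIN) to -2.39 (MCM5). The mean at 6 h is -0.07, and its sign turns with median-of-ratios scaling.

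Other genes of DNA replication and S phase entry outside the 48 moved less at 24 h. The members and these lists were chosen with earlier results of these data known, so the contrast is a description and no independent support. Of 38 such genes, 16 were lower by at least 1.5-fold with a median of -0.50, and of 20 G2/M genes 7 were lower with a median of -0.28. The 38 include the cyclins CCNE1 and CCNE2, which are also given singly below. Of all genes, 16.0% were lower by that fold. With N1302 the order was the other way, with 16 of 20 G2/M genes lower (median -1.15) and 15 of 38 other replication genes (median -0.28), beside a member median of -0.20. There 31.5% of all genes were lower by 1.5-fold. Of a further list of 10 E2F and RB regulators, which includes E2F7, 6 were lower with N1302 (median -0.95). With entinostat at 24 h 3 of those 10 were lower (median -0.33). Cpd50, the Jumonji inhibitor, lowered 12 of the 20 G2/M genes over both doses (limma), beside 2.74% of all genes. With so small a share of all genes, the 0 of 48 members lowered does not set the members apart. LAQ824 raised 11 and lowered 13 of the 38, and lowered 11 of the 20 G2/M genes while 2 rose. It raised 28.9% and lowered 25.2% of all genes. Of 4 S phase regulators outside the 48, CCNE1, a cyclin of the G1 to S transition, was called with none of LAQ824, WT161 and Bromosporin, while CCNE2, its relative, rose with Bromosporin (log2 0.65, limma adjusted p = 0.0074). MYBL2, an E2F target and B-MYB factor, fell with LAQ824 (-0.88) and WT161 (-0.73), and E2F7, a repressor E2F, fell with LAQ824 (-0.80) and rose with Bromosporin (0.52, limma adjusted p = 0.01). At 24 h of entinostat CCNE2 went from 59.5 to 12.6 TPM, CCNE1 from 134 to 62.5 TPM and MYBL2 from 324 to 113 TPM, while E2F7 stood at 30.8 and 30.3 TPM. With N1302, CCNE2 went from 71.9 to 28.1 TPM and E2F7 from 30.3 to 8.52 TPM.

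**Figure D5:**
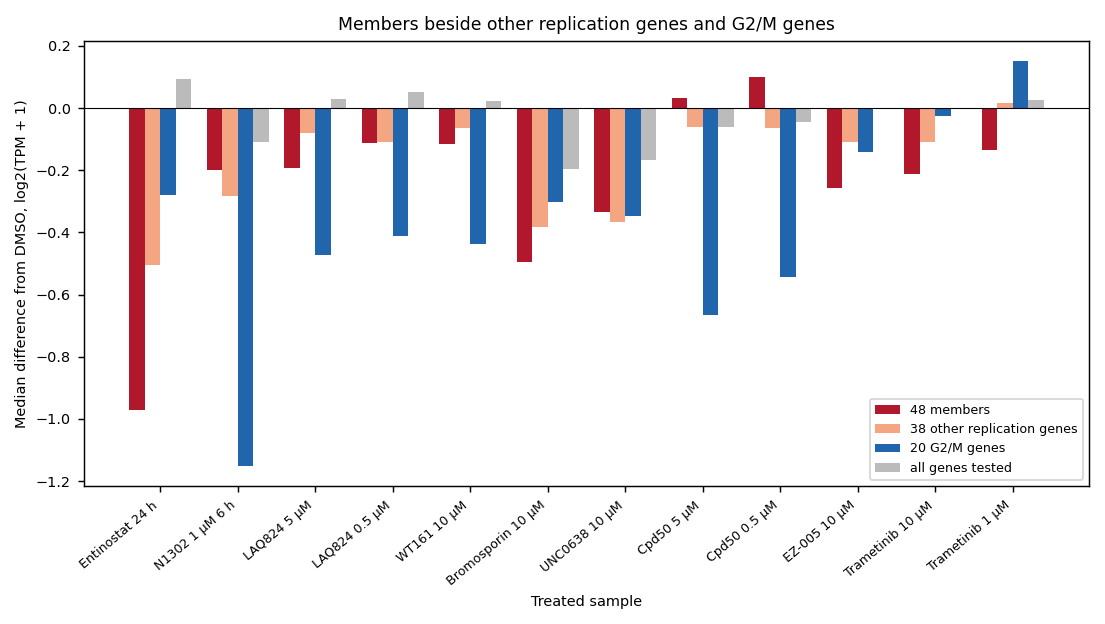
Median difference from DMSO, log2(TPM + 1) (vertical axis), of the 48 members, the 38 other replication genes, the 20 G2/M genes and all genes tested (bars) in selected treated samples (horizontal axis). The members are lowest of the 3 lists in 24 h entinostat (-0.97, -0.50 and -0.28), and the G2/M genes are lowest with N1302 (-1.15), where the sign of the member mean turns with scaling. The lists were chosen with earlier results of these data known.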

How the data were processed

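RNA was poly-A selected and sequenced, and the authors aligned reads to hg19 and deposited TPM per gene for each sample. Per the labels, groups were taken from compound, dose and time. From the deposited TPM, whole reads were recovered for the low-count check (23645 of 23645 genes gave whole numbers within 0.001). Values were log2(TPM + 1) and the filter was 1 TPM in at least 2 of 52 samples (16359 genes). The screen was fitted with limma 3.58.1 (R 4.3.3), trend in the variance, with a dose level term and a term per compound, over 42 columns, the 2 DMSO libraries of a concentration averaged. P-values were Benjamini-Hochberg adjusted over all genes at 0.05. The study's methods speak of replicate experiments, and the labels do not say whether samples came from separate cultures, so p-values measure only the spread between these samples. The axes were compared over compound means. N1302 and entinostat had 1 sample per condition and were described at 1.5-fold. On simulated data with known changes of log2 1, the screen fit recovered 193 of 200 changed genes with 8 false calls. The axis fit recovered 200 of 200 with 17 false calls. The simulated spread was set from the mean level of a gene and not taken from the data. Recovery at the spread of the data, such as the SE of 0.30 for E2F2 between the axes, was not tested. The simulation thus does not show how many changes the 0 calls between the axes missed. Recovery of other sizes, or of sizes that differ between doses or compounds, was not tested.

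The members and the gene lists were chosen with earlier results of these data known. Genes named in each comparison were CDC6, CDC45, PCNA, POLE2, FEN1, RRM2, E2F1, UHRF1 and CLSPN. For a compound with at least 5 called members the 3 largest changes each way were added, for N1302 and entinostat the 3 lowest and 3 highest, for the axes the 3 smallest p each way, and CCNE1, CCNE2, MYBL2 and E2F7 outside the members. Other names were chosen after their values were seen. Alternatives were the pseudocount (0.1), no filter, a mean of 5 TPM, median-of-ratios scaling, the DMSO libraries kept separate, each compound's own samples, a reference from its flow cell, a fold minimum, leaving out samples and, added after seeing the data, voom on the recovered reads. Numpy 2.4.6, pandas 2.3.3 and scipy 1.17.1 were used.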

Additional observations from a re-analysis of the deposited data

How the results depend on the processing

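With calls restricted to a fold change of at least 1.5, the sum of member calls was 47, with 17 for LAQ824, 9 for WT161, 16 for Bromosporin and 1 for UNC0638, or 35.4%, 18.8%, 33.3% and 2.08% of the members beside 44.4%, 25.7%, 28.9% and 10.4% of all genes. With a spread from each compound's own samples and DMSO the sum was 35, all with LAQ824 (72.9% of the members beside 72.8% of all genes), and 0 for WT161, Bromosporin and UNC0638, where 0 of all genes were called too. UNC0638 gave 1 member (2.08%, beside 11.4% of all genes) with median-of-ratios scaling, 7 (14.6%, 21.9%) with a mean of at least 5 TPM, 14 (29.2%, 26.8%) with the DMSO libraries kept separate, 12 of 48 (beside 18.3% of all genes) against the other compounds of its flow cell and 7 (14.6%, 18.9%) with voom, which was chosen after seeing the data. Leaving out a dose or a DMSO concentration gave 19 to 21 for LAQ824, 8 to 22 for WT161 (8 without 10 µM or 0.2% DMSO), 3 to 34 for Bromosporin (3 without 10 µM, 17 without 0.2% DMSO), 0 to 23 for UNC0638 and, for DMSO, a sum of 47 (0.2%) to 55 (0.1%). The axes gave 4 members (8.33%, beside 9.87% of all genes) at the high dose alone and 0 to 7 without 1 acetylation compound, with 15.3% to 18.7% of all genes called where 7 members (14.6%) were. Of the named genes' alternatives, 801 kept their side of the threshold, 46 gained the call and 61 lost it. Of the results called in the main fit, 0 changed sign. A result without a call that changed sign was counted as kept or gained. An example is E2F1 between the axes, at -0.019 in the main fit and 0.079 at the high dose alone.

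The member mean depended on scaling where it was near 0. With median-of-ratios scaling it was 0.071 for N1302 and 0.051 for entinostat at 6 h (both reversed), -0.97 for entinostat at 24 h, -0.065 and -0.058 for 5 and 0.5 µM LAQ824, -0.14 for 1 µM WT161, -0.17 for 10 µM Bromosporin, and -0.34 and 0.067 for 10 and 1 µM UNC0638. Against both 6 h DMSO samples it was -0.42 for N1302 and 0.10 for entinostat at 6 h (reversed). Against the other compounds of the flow cell it was -0.10 for WT161, -0.025 for Bromosporin and -0.021 for UNC0638, all at 1 µM. The median over members was -0.20 for N1302, -0.037 and -0.97 for entinostat at 6 and 24 h, -0.19 for 5 µM LAQ824, -0.12 and 0.0077 for 10 and 1 µM WT161, -0.49 for 10 µM Bromosporin, and -0.33 and 0.060 for 10 and 1 µM UNC0638. Members past 1.5-fold with N1302 were 13 higher and 15 lower with scaling (28.1% and 23.4% of all genes), and past 2-fold 3 higher and 10 lower (11.6% and 19.3%). For entinostat at 6 h, 5 were higher and 1 lower against both DMSO samples (21.3% and 7.17% of all genes), 1 lower with scaling, and 0 higher and 0 lower past 2-fold, and at 24 h 22 were lower past 2-fold, beside 6.06% of all genes. The cause was not tested.

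With the replicate number of the DMSO libraries as a replicate block, 0 members and 0 genes differed between the 2 DMSO concentrations, as without it, and 1768 genes had an unadjusted p under 0.05. The numbers follow the flow cell, and the treated groups have 1 sample each, so no other paired fit was possible. Single samples without replicates at 24 h and for N1302 limit those results to values.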
